A study of Mus musculus with 6 samples.

Results

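The cytosolic ribosomal protein genes were taken as the gene symbols that start with Rpl or Rps and a number, with Rplp0, Rplp1, Rplp2 and Rpsa, leaving out the kinases named Rps6k and the symbols with "-ps" that mark pseudogenes. The rule found 87 genes among the 24063 gene symbols of the count files. Of these, 77 encode canonical proteins of the ribosome, with 31 in the small subunit, 43 in the large subunit and 3 in the stalk of the large subunit. The other 10 symbols are paralogs or copies of ribosomal protein genes, and Rps19bp1, which encodes a protein that binds Rps19.

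RNA from bulk tissue of 6 mice was sequenced. The SA group held spontaneous penile tumors of 3 mice, 5 months old, with the genotype PB-Cre+ Smad4L/L ApcL/L. The WT group held normal penile epithelium of 3 wild type C57BL/6 mice of the same age. In SA mice, Cre is driven by an androgen-responsive promoter, so that recombination of the floxed genes is directed to epithelium with androgen receptor and other cells of the tumor keep them. The genetic background of the SA mice was not given in the sources used here, so that strain and genotype cannot be told apart. In bulk RNA fewer cells of a type and less RNA per cell cannot be told apart.

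Ribosomes translate all mRNA of the cell. The small subunit reads the codons, the large subunit joins the amino acids, and the stalk recruits elongation factors. Ribosomal proteins are made in the cytosol and assembled with ribosomal RNA in the nucleolus, in near equal numbers of each protein. Their mRNAs are among the most abundant of a growing cell and carry a run of pyrimidines at the very start, the TOP motif, through which the TOR pathway controls their translation.

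The 6 libraries held between 23828283 and 110509147 counts over gene rows, the deepest being SA replicate 3. The floor of 3 counts corresponded to between 0.0244 and 0.137 CPM, for counting error only. Smad4 measured 36.6, 36.1 and 46.1 CPM in the SA tumors and 61.2, 69.7 and 72.5 CPM in the WT penises. It fell by 0.77 on the log2 scale (edgeR adjusted p = 0.00114). Apc measured 253.1, 193.6 and 197.1 CPM in SA and 62.5, 85.3 and 91.1 CPM in WT, and was higher in SA by 1.43 (log2, edgeR adjusted p = 0.000185). Counts covered whole transcripts, which include exons outside a floxed segment, so neither the Smad4 level nor the Apc level checks a deletion. The labelled epithelium was checked by 6 keratinocyte markers, whose summed level was 9299 to 11500 CPM in SA and 17360 to 20140 CPM in WT, with 3 of 6 lower. Smooth muscle markers summed to 34.9 to 120.3 CPM in SA and 1476 to 1966 CPM in WT, with 5 of 5 lower. Fibroblast markers summed to 1024 to 3804 and 5008 to 5270 CPM (1 of 5 lower), endothelial markers to 116.7 to 178.6 and 175.6 to 209.1 CPM (1 of 4 lower), and skeletal muscle markers to 6.85 to 8.62 and 11.7 to 17.0 CPM (1 of 4 tested lower). Leukocyte markers were at 1500 to 2582 CPM in SA and 121 to 198 CPM in WT (2 of 6 higher), and proliferation markers at 438 to 487 and 219 to 359 CPM (1 of 5 higher). The leukocyte sum came mostly from the 2 called genes, S100a8 (mean 783 CPM in SA, 46.0 in WT) and S100a9 (1049 and 36.1 CPM). Ptprc and Itgam were higher in every SA library but had no call, and Cd3e and Csf1r overlapped between the groups. The numbers of markers called stand beside 17.5% of all genes tested that were lower and 20.1% that were higher. The part of tissue composition in the results on ribosomal protein genes was not tested.

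Ribosomal protein mRNAs were lower in SA tumors than in WT penis when libraries were scaled by TMM. All 77 canonical genes had a negative log2 fold change (SA minus WT), from -1.45 for Rpl34 to -0.14 for Rpl7, with a median of -0.47 beside 0.03 over all genes tested. Of the 84 ribosomal protein genes that passed the filter on low counts, 29 fell (adjusted p under 0.01, edgeR quasi-likelihood test), which is 34.5%, beside 17.5% of all 16336 genes tested. No member rose, beside 20.1% of all genes, and no member was higher at an unadjusted p under 0.05 or by DESeq2 or limma-voom. The remaining 55 had no call. At an unadjusted p under 0.05, 67 of the 84 were lower, beside 27.9% of all genes. These values depend on the scaling. By library totals alone, 68 of the 84 genes had a negative log2 fold change and 7 fell.

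The fall was broad and small. At the thresholds used in the study, which also ask for a change of 2 or more on the log2 scale, 0 members passed in edgeR, DESeq2 or limma-voom, beside 13.0% of all genes. All 3 SA libraries lay below all 3 WT libraries for 66 of the 84 genes (78.6%), beside 30.7% of all genes tested. Of the canonical genes, 2 had a log2 fold change of -1 or below, 5 lay between -1 and -0.75, 24 between -0.75 and -0.5, 39 between -0.5 and -0.25, and 7 between -0.25 and 0. Without Rpl34 and Rpl30 the SD of the log2 fold changes over the canonical genes was 0.165.

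The fall took in both subunits. In the small subunit 11 of 31 genes fell, with a median log2 fold change of -0.47. In the large subunit 16 of 43 fell, with a median of -0.43, and in the stalk 2 of 3 fell, with a median of -0.55. The summed counts of large subunit and stalk genes were 1.45, 1.44 and 1.43 times those of small subunit genes in SA and 1.46, 1.46 and 1.47 times in WT, so the groups did not overlap but differed little.

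**Figure D1:**
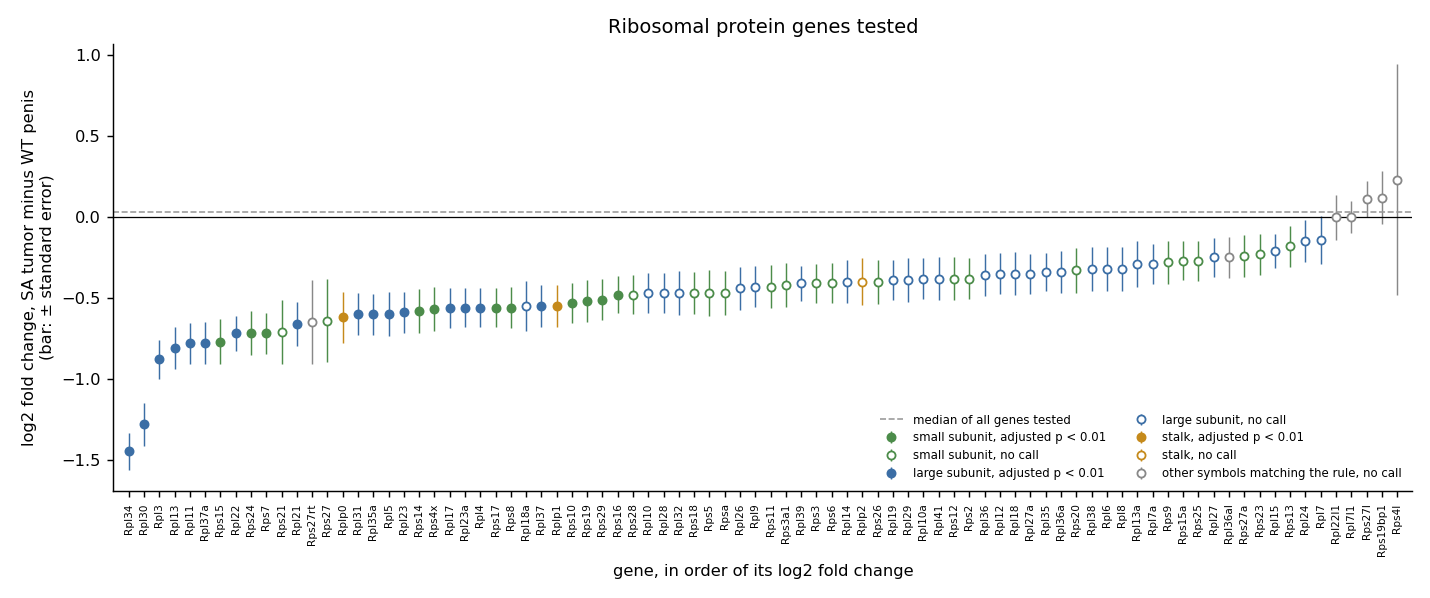
The log2 fold change (SA tumor minus WT penis, y axis, with its standard error) is plotted for the 84 ribosomal protein genes tested, ordered from lowest to highest, colored by subunit and filled where adjusted p was under 0.01. Rpl34 and Rpl30 lie apart at the low end, all canonical genes lie below 0, and 5 of the 7 other symbols, from Rpl22l1 at 0.00 to Rps4l at 0.23, sit at the right end, with Rps27rt at -0.65 and Rpl36al at -0.25 among the canonical genes.

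As a share of all gene counts, with no other normalization, the 87 genes took 4.42%, 4.83% and 4.04% in SA (4.43% ± 0.393, SD, n = 3) and 5.68%, 4.91% and 4.58% in WT (5.06% ± 0.56, SD, n = 3). The second SA library lay above the third WT library, so these shares overlapped. TMM factors were 1.1, 1.097 and 1.115 in SA and 0.8845, 0.9116 and 0.9214 in WT. After TMM the canonical genes summed to 35780 to 43270 CPM in SA and 49000 to 63230 CPM in WT, with no overlap.

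Scaled by library totals alone, the median over the 84 genes was -0.14 and 7 fell, but the median over all genes then moved from 0.03 to 0.31. The distance from the median of all genes was -0.45 under TMM, RLE and library totals and -0.46 under upper quartile. These scalings move all genes by nearly the same amount, so this distance hardly can change and does not show which scaling is right. On the TPM scale, a level per transcript length, the SA mean was below the WT mean for 55 of the 77 canonical genes and above it for 22. All SA libraries were below all WT libraries for 26 of them in TPM, and above for 2, Rpl15 and Rpl24. In CPM after TMM all SA libraries were below for 65 of the 77, beside 30.7% of all genes tested. The share over all genes was not computed in TPM.

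**Figure D2:**
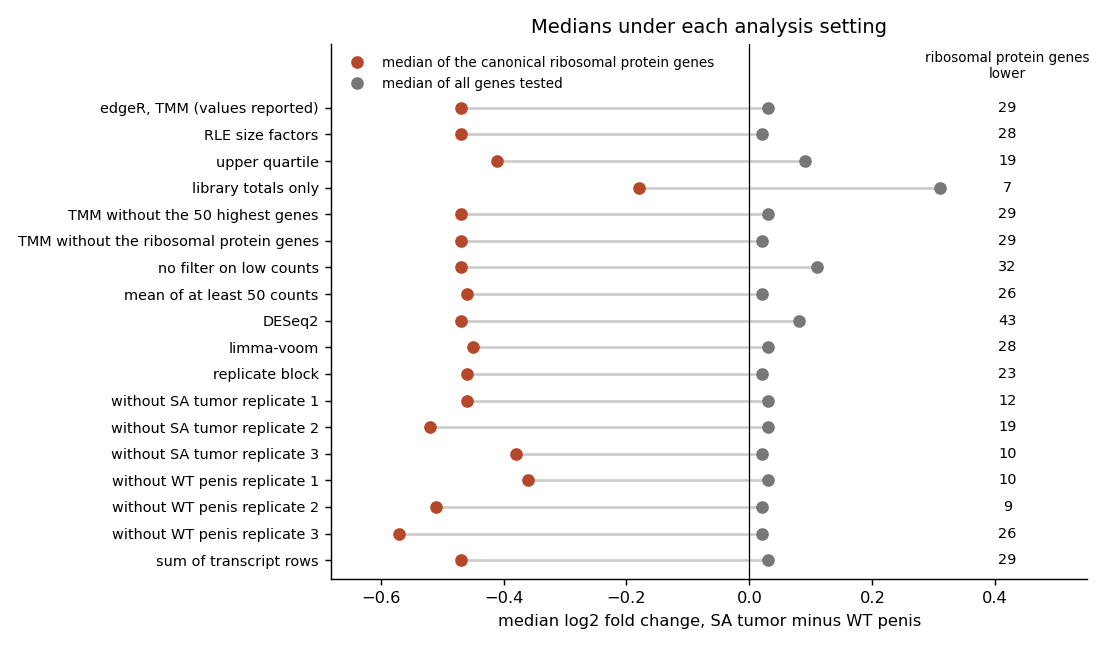
Each line gives an analysis setting, with the median log2 fold change of the canonical ribosomal protein genes (red) and of all genes tested (grey) on the x axis and the number of ribosomal protein genes lower at adjusted p under 0.01 at the right. Both medians shift together when libraries are scaled by totals only (-0.18 and 0.31), and the number of genes lower ranges from 7 to 43.

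The libraries of a group differed among themselves. The canonical genes of WT replicate 1 lay a median of 0.32 (log2 CPM) above the other WT libraries. Those of WT replicate 3 lay at -0.24 and those of SA replicate 3 at -0.19 against the rest of their group. The count of genes that fell was 12 without SA replicate 1, 19 without SA replicate 2, 10 without SA replicate 3, 10 without WT replicate 1, 9 without WT replicate 2 and 26 without WT replicate 3. The median stayed between -0.53 and -0.33 in these fits. Of the 29 genes, 7 fell in all 17 alternative fits, namely Rpl34, Rpl30, Rpl3, Rpl13, Rpl11, Rpl37a and Rpl22, which are all proteins of the large subunit. The small subunit genes Rps15 and Rps7 fell in 16 of the 17 and Rps24 in 15, so this count does not set the large subunit apart.

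The largest fall was that of Rpl34, a protein of the large subunit (chromosome 3). It measured 127.7, 136.8 and 118.7 CPM in SA tumors and 395.1, 335.9 and 315.2 CPM in WT penises. The highest SA library held less than any WT library by a wide margin. SA reached 36.6% of WT, a log2 fold change of -1.45 ± 0.117 (SE, edgeR adjusted p = 2.51e-05), and the range over the alternatives was -1.54 to -1.16.

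Rpl34 has 3 transcript rows, and reads that fit several rows were counted in each. Rpl34-ps1, a processed copy elsewhere in the genome, held 3285, 3942 and 13941 counts in SA against 3288, 3943 and 13945 for the Rpl34 row NM_001005859, so the reads of both cannot be told apart. The row NM_026724 held the highest count of the 3 Rpl34 rows in every library. Its count exceeded that of NM_001005859 by 5.46, 6.26 and 5.41 CPM in SA and 3.71, 4.31 and 4.74 CPM in WT. This difference was larger in every SA library than in any WT library, with a mean of 5.71 ± 0.475 CPM in SA and 4.25 ± 0.518 CPM in WT (SD, n = 3). This pair of rows was chosen after its values were seen, and no test was run on it.

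Rpl30 (chromosome 15), also of the large subunit, came next. It measured 141.8, 148.2 and 131.4 CPM in SA and 407, 318 and 300.2 CPM in WT. Again the groups lay far apart, with WT replicate 1 the highest. SA reached 41.1% of WT, a log2 fold change of -1.28 ± 0.133 (edgeR adjusted p = 9.24e-05). Of the 76-base stretches of its transcripts, 39.8% also occur in transcripts of other genes, and 30.2% for Rpl34.

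Rpl3, which lies close to the site where the peptide bond is formed, measured 628.5, 666.1 and 571 CPM in SA and 1290, 1090 and 1044 CPM in WT. Its log2 fold change was -0.88 (adjusted p = 0.000473), with no overlap of the groups. Rpl13 measured 556.2, 642.3 and 529.1 CPM in SA and 1142, 984.8 and 908.6 CPM in WT, a log2 fold change of -0.81. Rpl37a measured 259.7, 285.5 and 249.6 CPM in SA and 534.5, 419.7 and 411.3 CPM in WT, a log2 fold change of -0.78. In each of the 3 genes SA was at between 54.5% and 58.2% of WT.

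Rpl5 and Rpl11 bind 5S ribosomal RNA together and, outside the ribosome, hold the p53 ligase Mdm2. Rpl11 measured 396.3, 438.9 and 379 CPM in SA and 802, 661.3 and 620.7 CPM in WT, and fell by 0.78 on the log2 scale (edgeR adjusted p = 0.00107). Rpl5 measured 417.1, 445.5 and 339.9 CPM in SA and 683.2, 583.9 and 556.7 CPM in WT, and fell by 0.60 (edgeR adjusted p = 0.00587). Neither gene overlapped between the groups. Rpl11 fell in 17 of 17 alternative fits and Rpl5 in 12.

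In the small subunit the lowest log2 fold changes were those of Rps15 at -0.77, Rps24 at -0.72 and Rps7 at -0.72. Rps15, whose tail reaches the decoding site, measured 475.4, 549.5 and 444.5 CPM in SA and 969.4, 802.9 and 740.5 CPM in WT. Rps24 measured 668.9, 751.4 and 651.1 CPM in SA and 1329, 1094 and 987.9 CPM in WT. Rps7 measured 354.6, 392.5 and 332.2 CPM in SA and 674.7, 581.8 and 520.5 CPM in WT. All 3 fell, with edgeR adjusted p of 0.00168, 0.00232 and 0.00161, and their groups did not overlap.

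Rps6 is the substrate of the S6 kinases. It measured 347.7, 373.8 and 307.4 CPM in SA and 512.1, 443.6 and 411.2 CPM in WT, a log2 fold change of -0.41 with no call (edgeR adjusted p = 0.0216). Rpsa, known also as the laminin receptor, measured 985, 1116 and 928.7 CPM in SA and 1630, 1335 and 1232 CPM in WT, a log2 fold change of -0.47 with no call (edgeR adjusted p = 0.020). For both genes all SA libraries lay below all WT libraries.

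Rps27 and Rps21 stood out by 1 library. Rps27 measured 358.2, 408.7 and 192.6 CPM in SA and 566.2, 485.2 and 446.6 CPM in WT. Its SA replicate 3 lay 0.99 on the log2 scale below the other SA libraries, the widest such gap of any canonical gene. Rps21 measured 227.4, 250.1 and 150.2 CPM in SA and 404.8, 325.8 and 298.9 CPM in WT. Neither was called (log2 fold changes of -0.64 and -0.71, edgeR adjusted p = 0.0689 and 0.016), although SA lay below WT in every library. SA replicate 3 was also the deepest library, and the part of depth in this was not tested.

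The stalk is built from Rplp0, Rplp1 and Rplp2. Rplp0 measured 1906, 2073 and 1488 CPM in SA and 3164, 2712 and 2527 CPM in WT, a log2 fold change of -0.62 that lay just inside the threshold (edgeR adjusted p = 0.00998). Rplp1 measured 767.7, 840.1 and 718.1 CPM in SA and 1313, 1089 and 996.9 CPM in WT, a log2 fold change of -0.55 (edgeR adjusted p = 0.00824). Rplp2 measured 403.8, 457 and 375.4 CPM in SA and 656.2, 485.6 and 494.8 CPM in WT, with no call (log2 fold change -0.40, edgeR adjusted p = 0.0433). None of the 3 overlapped between groups. The call was lost in 10 of 17 alternatives for Rplp0 and kept in 9 for Rplp1.

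At the other end, Rpl7, Rpl24, Rps13, Rpl15 and Rps23 were the canonical genes closest to 0. Rpl7 measured 1098, 1116 and 879 CPM in SA and 1330, 1089 and 993.6 CPM in WT, so the groups overlapped (log2 fold change -0.14, edgeR adjusted p = 0.451). Rpl24 measured 323.5, 351.5 and 294.3 CPM in SA and 418.7, 341.6 and 315.7 CPM in WT (log2 fold change -0.15). Rps13, Rpl15 and Rps23 had log2 fold changes of -0.18, -0.21 and -0.23. All 5 were without a call, and Rpl15 was the sole one of them in which the groups did not overlap.

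**Figure D3:**
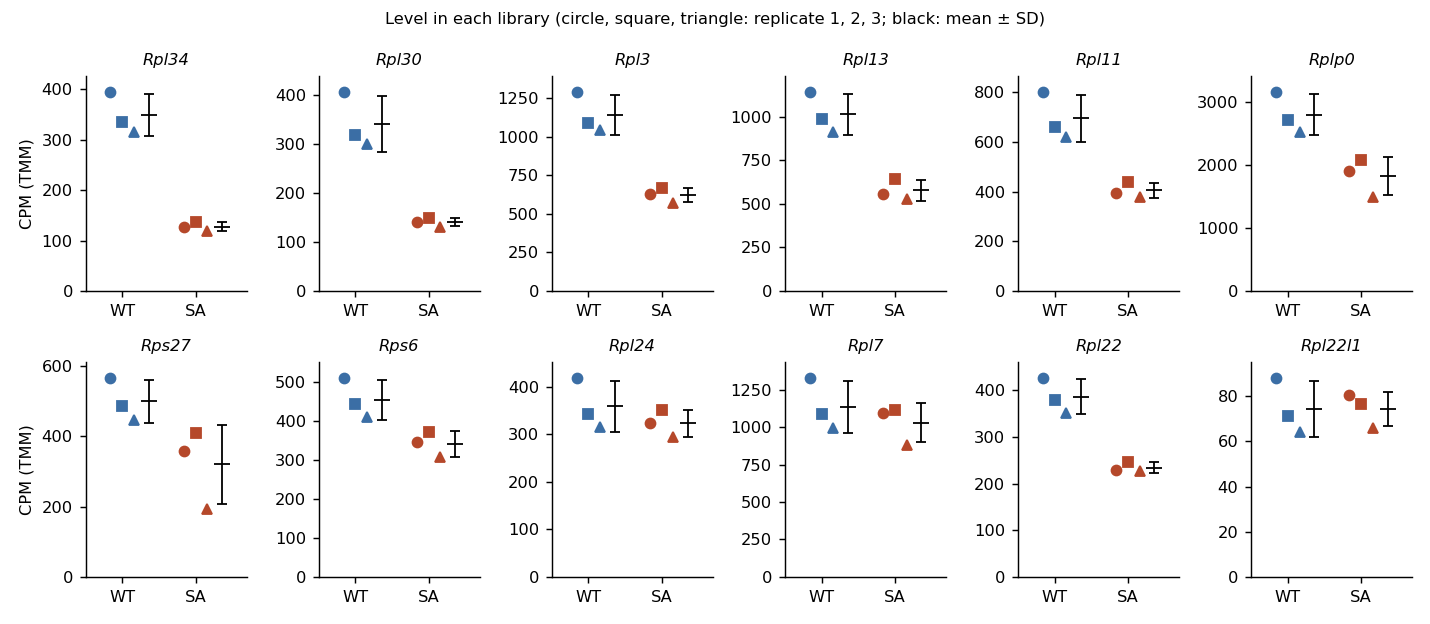
CPM after TMM (y axis, from 0) is shown for 12 genes in each WT and SA library, with the mean and SD of each group beside the points. Rpl34 and Rpl30 show wide gaps between groups, Rps27 has a low SA replicate 3 at 192.6 CPM, and in Rpl24, Rpl7 and Rpl22l1 the groups overlap.

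To ask which members moved apart from the family, counts were also tested with the summed canonical counts of each library as its size. By construction this centers the family near 0 and moves other genes up, so the shares over all genes are no measure for the members. On this relative scale 3 members were lower (3.57%), beside 6.07% of all genes, and 1 was higher (1.19%), beside 31.3% of all genes. The 3 were Rpl34 at -0.97 ± 0.106 (log2, SE), Rpl30 at -0.80 ± 0.108 and Rpl3 at -0.40 ± 0.0964, the last just inside the threshold (edgeR adjusted p = 0.00997). The 1 higher member was the paralog Rps27l at 0.59 ± 0.131 (edgeR adjusted p = 0.00695). The other canonical genes had no call on this scale, which does not show that their place within the family was the same. Across the 77 canonical genes the mean TPM in SA had a Pearson r of 0.97 and a Spearman rho of 0.97 with that in WT, and these genes share their libraries.

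Promoters were compared because the genes moved together. The RefSeq tables (build GRCm38.p6) held a promoter of 57 canonical genes, from 250 bases before the start to 50 after it. The letters CTTCCGG, the core bound by ETS factors, occurred on either strand in 24 of them (42.1%), beside 9.93% of 27025 genes. The GC box GGGCGG occurred in 61.4% beside 38.2%, and the YY1 letters AAGATGGC in 8.77% beside 3.19%. A run of at least 8 pyrimidines (C or T) within 20 bases of the start occurred in 52.6%, beside 23.7% of all genes.

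Stretches from 60 bases before the start to 15 from it on are shown for genes with a large fall (Rpl34, Rpl13, Rps7), for canonical genes close to 0 (Rpl24, Rps13) and for the paralog Rpl22l1, in the direction of transcription. Capitals mark the ETS letters and the pyrimidine runs, which overlap in Rpl34. The genes shown do not stand for the family. Among genes not shown, Rpl15 at a log2 fold change of -0.21 held both, while Rpl37a at -0.78 and Rps15 at -0.77 held neither. A second RefSeq entry for Rpl34 starts further upstream (chr3:130730384-130730458 for the same stretch) and held a pyrimidine run and no ETS letters.
Rpl34, chr3:130730323-130730397, minus strand: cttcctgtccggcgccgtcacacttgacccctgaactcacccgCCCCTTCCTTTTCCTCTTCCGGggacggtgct
Rpl13, chr8:123102290-123102364, plus strand: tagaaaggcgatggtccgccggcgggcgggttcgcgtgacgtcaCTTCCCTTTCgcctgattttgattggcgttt
Rps7, chr12:28635939-28636013, minus strand: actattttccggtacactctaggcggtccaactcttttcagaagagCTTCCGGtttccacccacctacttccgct
Rpl24, chr16:55966215-55966289, plus strand: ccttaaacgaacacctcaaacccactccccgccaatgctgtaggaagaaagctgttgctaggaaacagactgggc
Rps13, chr7:116334176-116334250, minus strand: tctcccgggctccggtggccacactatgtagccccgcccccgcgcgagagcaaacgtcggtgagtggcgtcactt
Rpl22l1, chr3:28805448-28805522, plus strand: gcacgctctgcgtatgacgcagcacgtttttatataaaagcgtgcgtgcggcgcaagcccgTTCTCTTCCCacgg

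The change was close in genes with and without these letters. Genes with the ETS letters had a median log2 fold change of -0.41 and those without it of -0.47. Genes with a pyrimidine run had a median of -0.40 and those without it of -0.47. Likewise, across the 77 canonical genes the log2 fold change had a Pearson r of 0.01 with transcript length, 0.07 with mean TPM and 0.11 with the share of 76-base stretches found in other genes. More than 50% of those stretches were shared in 30 genes, whose median was -0.40, and in the other 47 genes it was -0.48.

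Per transcript length, Rplp1 was the most abundant of the canonical genes, with a mean of 2935 ± 136 TPM in SA and 3304 ± 264 TPM in WT (SD, n = 3). Rplp0 followed at 2370 ± 328 and 2814 ± 151 TPM, and Rps12 at 2348 ± 107 and 2349 ± 185 TPM. Rps12 and Rplp0 did not differ beyond their spread in SA. The lowest levels were those of Rps15a at 132.9 ± 6.25 and 123.3 ± 7.78 TPM, Rpl22 at 176.4 ± 2.71 and 224.2 ± 8.18 TPM, and Rpl15 at 258.4 ± 14.3 and 230.9 ± 5.45 TPM. The median over the 77 genes was 1154 TPM and the highest mean was 24.3 times the lowest. A level per length follows the length of the transcript row used, which was 5134 nucleotides for Rps15a, 2357 for Rpl22 and 1841 for Rpl15.

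In the comparison scaled by TMM with all 6 libraries, no paralog was called in either direction. Of the 10 other symbols, 7 were tested and 0 were called by edgeR, with 1 at an unadjusted p under 0.05 and a median log2 fold change of 0.00. Rpl22l1, which can take the place of Rpl22 in the ribosome, measured 80.6, 76.4 and 65.8 CPM in SA and 88.1, 71.2 and 63.9 CPM in WT, with full overlap of the groups. Rpl22 measured 229.4, 247.1 and 227.1 CPM in SA and 426.9, 380.3 and 352.1 CPM in WT, and fell by 0.72 (log2, edgeR adjusted p = 0.000628).

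As a percentage of Rpl22 counts, without correction for length, Rpl22l1 counts were 35.1, 30.9 and 29.0 in SA and 20.6, 18.7 and 18.2 in WT. All SA libraries lay above all WT libraries, and the exact permutation test gave p = 0.1 (two-sided), the smallest value that 3 against 3 can give. Rps27l, a paralog of Rps27 known as a p53 target, measured 63.2, 57.8 and 51.8 CPM in SA and 57.9, 49.7 and 52.2 CPM in WT (log2 fold change 0.11, no call). Its counts were 17.6%, 14.2% and 26.9% of those of Rps27 in SA and 10.2%, 10.3% and 11.7% in WT, again with exact permutation p = 0.1. The 26.9% belongs to the library with the low Rps27 count.

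For the other paralog pairs the ratios overlapped between the groups. Rpl36al was at 47.5% ± 1.51 of Rpl36a in SA and 44.8% ± 1.79 in WT (SD, n = 3, exact permutation p = 0.2), and Rpl7l1 at 8.42% ± 1.01 and 7.63% ± 0.666 of Rpl7 (exact permutation p = 0.4). Rps4l was at 3.10% ± 3.20 of Rps4x in SA and 1.80% ± 0.163 in WT (exact permutation p = 1). Over the 5 ratios, the Benjamini-Hochberg adjusted values of these exact tests were 0.25 for Rpl22l1 and Rps27l, 0.333 for Rpl36al, 0.5 for Rpl7l1 and 1 for Rps4l. Rpl36al had a log2 fold change of -0.25 and Rpl7l1 of 0.00, both without a call. Rps19bp1 measured 14.2, 18.8 and 12.9 CPM in SA and 14.3, 13.5 and 14.4 CPM in WT (log2 fold change 0.12).

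Rps4l, which is named after Rps4x, varied most among SA tumors, at 61.9, 14.8 and 8.33 CPM, against 25.5, 23.1 and 23.4 CPM in WT. SA replicate 1 lay above and the other SA libraries below the WT libraries, and the log2 fold change was 0.23 ± 0.715 with all libraries. Without SA replicate 1 it was -1.08 (edgeR adjusted p = 0.00531). Rps27rt held the same counts as the Rps27 row NM_027015 in all 6 libraries, so that its log2 fold change of -0.65 is no measure of its own. Of the 3 paralogs below the filter, Rpl10l, known from testis, had 0 counts in every library, which allows a level of up to 0.0244 CPM in the deepest one. Rpl3l, known from muscle, was at 0.149, 0.232 and 0.179 CPM in SA and 0.0452, 0.100 and 0.0456 CPM in WT. Rpl39l lay between 0.0372 and 0.452 CPM in all libraries.

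**Figure D4:**
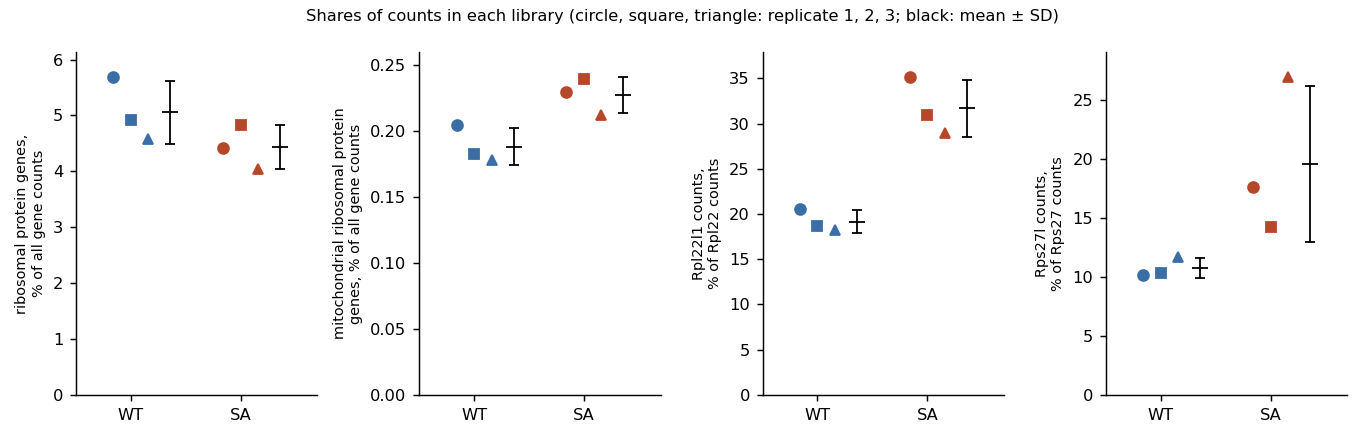
Each panel gives a percentage of counts (y axis, from 0) in the 3 WT and 3 SA libraries with mean and SD. The share of ribosomal protein genes overlaps between groups (4.04% to 4.83% in SA, 4.58% to 5.68% in WT), the mitochondrial share of raw counts does not (its sum after TMM does), and neither do the ratios of Rpl22l1 to Rpl22 and Rps27l to Rps27.

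Fau and Gnb2l1 also encode proteins of the cytosolic ribosome and are outside the rule because of their names. Fau, which encodes a small subunit protein fused to a ubiquitin-like one, measured 337.8, 391.9 and 317.3 CPM in SA and 558.1, 447.9 and 405.4 CPM in WT. Its groups did not overlap, and its log2 fold change of -0.43 had no call (edgeR adjusted p = 0.0335). Gnb2l1 (Rack1), a scaffold on the small subunit, measured 1163, 1224 and 1000 CPM in SA and 1575, 1352 and 1220 CPM in WT. Its groups overlapped, and its log2 fold change of -0.29 had no call (edgeR adjusted p = 0.1).

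Genes that act with ribosomes were counted in the same fit, where the median over all genes was 0.03 and 20.1% of all genes were higher and 17.5% lower. Of 10 elongation factors and related genes, Tpt1 fell by 0.77 (log2, edgeR adjusted p = 0.000749) and 2 rose, Eef1e1 by 0.65 and Eef1a2 by 3.04. Tpt1, like the ribosomal protein mRNAs, is a classical TOP mRNA. The list was not sorted by this motif, so Tpt1 alone says nothing on TOP mRNAs as a class. Eef1a2 stood below 1 CPM in both groups. Eef1a1, the main carrier of aminoacyl-tRNA, and Eef2, the translocase, had values of -0.28 and -0.29 with no call, and the median of the 10 was -0.19. The sign of that median turned under library totals, to 0.10.

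Of 39 initiation factors, 3 rose and 4 fell, with a median of -0.04, whose sign changed among the alternatives (-0.12 to 0.25). The 3 were Eif4g3 at 0.74, Eif3b at 0.50 and Eif1a at 0.43, and the 4 were Eif3h at -0.58, Eif2b5 at -0.49, Eif4a2 at -0.45 and Eif4b at -0.45. Of 22 genes of the TOR pathway and translation control, 1 rose (Eif2ak2, the RNA-activated kinase, at 0.50) and 4 fell. Among the 4, Eef2k, the kinase of Eef2, had 49.7 ± 1.99 CPM in SA and 156.7 ± 20.7 CPM in WT (SD, n = 3), a log2 fold change of -1.66, and Mtor itself was at -0.51, Pdcd4 at -0.56 and the S6 kinase Rps6kb2 at -0.49. Larp1, which binds TOP mRNAs, measured 342.3 ± 38.7 CPM in SA and 279.3 ± 19.3 CPM in WT with overlap and no call (edgeR adjusted p = 0.0606).

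Among the 10 genes named Rps6k, which the rule left out, Rps6ka2 rose by 2.82 and Rps6kl1 by 3.30 (log2, edgeR adjusted p = 1.08e-05 and 2.34e-05), and Rps6kb2 fell. The median of the 10 was 0.16. Of the Myc genes, which drive ribosome production, Mycn rose from 0.728 ± 0.124 CPM in WT to 13.2 ± 3.61 CPM in SA (SD, n = 3), by 4.15 on the log2 scale (edgeR adjusted p = 1.13e-05). Myc was at 107.7 ± 3.89 CPM in SA and 131.8 ± 9.63 CPM in WT, with no call (log2 fold change -0.29, edgeR adjusted p = 0.0282).

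Ribosome assembly genes mostly had values above 0. Of 90 tested, 10 rose and 1 fell, which are smaller shares than the 20.1% and 17.5% of all genes. So these genes were not called higher more often than others. Of the 90, 17 had a negative log2 fold change, and the median was 0.25, beside 0.03 over all genes. Cirh1a, a part of the small subunit processome, measured 72.1, 65.2 and 55.2 CPM in SA and 34.3, 30.5 and 33.4 CPM in WT, and rose by 0.97 (edgeR adjusted p = 0.000267). Wdr12, which with Bop1 acts on the large subunit, rose by 0.86 and Bop1 by 0.46. Gnl3l rose by 0.74 and Dkc1, the pseudouridine synthase of ribosomal RNA, by 0.48. The 1 gene that fell was Sbds, which releases the late large subunit for translation, at 44.7 ± 2.78 CPM in SA and 74.6 ± 3.29 CPM in WT (SD, n = 3, log2 fold change -0.74).

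Of 10 snoRNA host genes tested, whose RNAs are also TOP transcripts in many cases, 6 rose and none fell by edgeR, with a median of 0.56 and the highest value in Snhg6 (1.01), followed by Snhg4 (0.77), Snhg18 (0.74), Snhg7 (0.72), Snhg3 (0.70) and Snhg5 (0.43). Gas5 was at -0.05. Among 20 genes of RNA polymerase I and its factors, 2 rose (Polr1a at 0.97 and Polr1e at 0.81) and 3 fell (Polr1d at -0.80, Polr2f at -0.68 and Znrd1 at -0.67). Of 6 chaperones of ribosomal proteins, Nap1l1 rose by 1.03 and Aamp fell by 0.46. The medians of the assembly and snoRNA host lists were above 0 in all 17 alternative fits, at 0.22 to 0.53 and 0.39 to 0.85. The upper ends came from library totals only, where the median of all genes was 0.31. Above the median of all genes in the same fit, the lists lay by 0.12 to 0.30 and 0.30 to 0.55. These fits share their libraries.

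The mitochondrial ribosome is built from a separate set of 77 genes. Of these 1 rose (Mrpl34 at 0.65) and 3 fell (Mrpl14 at -0.71, Mrpl24 at -0.59 and Mrpl44 at -0.49), with a median of 0.01, and the sign of that median changed among the alternatives (-0.05 to 0.30). Their share of all gene counts was 0.227% ± 0.014 in SA and 0.188% ± 0.0139 in WT (SD, n = 3), with all SA libraries above all WT libraries. After TMM their summed level was 1899 to 2182 CPM in SA and 1932 to 2304 CPM in WT, so the groups overlapped.

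**Figure D5:**
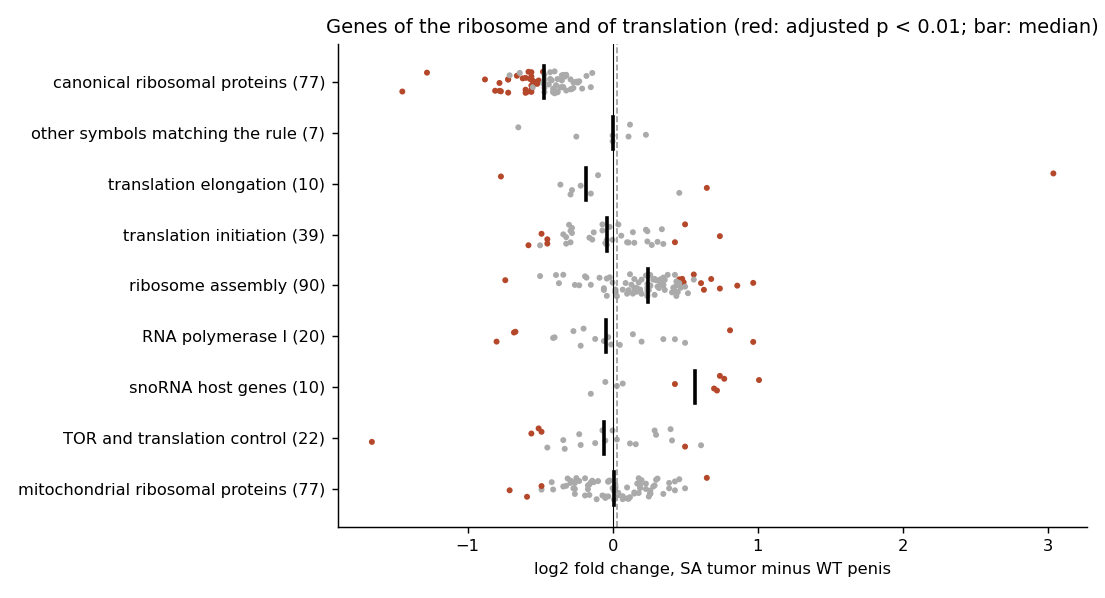
Each point is a gene, placed by its log2 fold change (SA tumor minus WT penis, x axis), in lists whose number of genes tested is in brackets, red where adjusted p was under 0.01, with a bar at the median. The canonical ribosomal protein genes all lie below 0 with a median of -0.47, the ribosome assembly genes have a median of 0.25 and the mitochondrial ribosomal protein genes of 0.01.

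Outside the family, the genes most like the summed canonical counts over the 6 libraries, among 10685 genes compared, were Hadha (Pearson r = 0.9986), Dcdc2b (0.9982) and Gm15772 (0.9977). Each had a log2 fold change of its own between -0.48 and -0.37, with no call.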

How the data were processed

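Stranded RNA sequencing covered 3 SA tumors and 3 samples of WT penile epithelium. According to the methods, TopHat was used for alignment to mm10 and HTSeq for counting. The deposited values used for the tests are raw counts for 33068 RefSeq transcript rows. The authors also deposited FPKM and TPM values made from these counts. FPKM was not used. TPM was used to compare levels between genes, and no test was run on it. The versions of TopHat and HTSeq are not given in the sources used here.

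A read that fits several transcripts was counted in each, so every symbol was represented by its row with the highest mean count. Counts were tested in R 4.3.3 with edgeR 4.0.16 (filterByExpr with a minimum of 10 counts, TMM, robust quasi-likelihood F-test), and p-values were adjusted by Benjamini-Hochberg over 16336 genes. A call needed an adjusted p-value under 0.01. CPM values were normalized by TMM, and the log2 CPM values behind the comparison of libraries had a prior count of 2. The standard error was the log2 fold change divided by the square root of F. The script was tested on simulated data. The alternatives were DESeq2 1.42.0, limma-voom (limma 3.58.1), 5 other scalings, 2 other filters, the sum of transcript rows, the replicate number as a block, and each library left out. Tables were summarized with Python 3 (pandas). Promoters came from RefSeq.

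Genes were named by a rule. They are Smad4, Apc, the stalk genes, Rpsa, Rps6, Rpl5, Rpl11, all members outside the canonical set with their parent genes, the 5 canonical genes with the highest and the 5 with the lowest log2 fold change, the 3 highest and 3 lowest in TPM, the 3 highest and 3 lowest called genes of each other list, Fau, Gnb2l1, Larp1, and the 3 genes most like the summed members. Rps21, Rps24, Rps7, Rps15 and the Myc genes, the elongation factors without a call, Gas5 and the genes listed as falling in all alternatives were named after their values were seen. A gene that the rule covers is not reported here. The members and lists were chosen with earlier results of these data known. The p-values measure the spread between these mice.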

Additional observations from a re-analysis of the deposited data

How the results depend on the processing

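The number of ribosomal protein genes lower in SA tumor was 29 as reported, 19 with upper quartile scaling and 7 with library totals only, where the median over the members was -0.14 and that over all genes 0.31. It was 43 by DESeq2, which was within 1.5 times the reported number, and with 1 library left out it ranged from 9 to 26. The cause of these differences was not tested. The fits with 1 library left out also had fewer libraries, and the part of this was not tested. The labels give both groups the numbers 1 to 3, but residuals of libraries with the same number had correlations of -0.13, -0.10 and 0.02, so they share only a number. With the replicate block 23 genes were lower and the median was -0.42. No member was higher or past the thresholds of the study under any alternative. The difference in the share of counts (SA minus WT) was -0.63 percentage points. It lay between -0.62 and -0.58 with other choices of rows or TPM, but these shares differ in size, so equal points are not equal relative changes. The TPM share was 13.3% ± 0.818 in SA and 13.9% ± 0.87 in WT (SD, n = 3), and the groups overlapped. With 1 library left out, an alternative chosen after seeing the data, the difference in the share of counts ranged from -0.862 (without WT penis replicate 3) to -0.316 (without WT penis replicate 1). With 1 library left out Rps4l, at 0.23 as reported, ranged from -1.08 (without SA tumor replicate 1) to 0.68 (without SA tumor replicate 3). Over single members and alternatives, 1274 values kept their side of the threshold, 134 lost the call, 19 gained one and 1 changed sign and gained a call (Rps4l). The list counts moved more. Ribosome assembly genes higher ranged from 2 to 57 and snoRNA host genes higher from 1 to 6, while initiation factors higher ranged from 1 to 9 and lower from 0 to 5, and mitochondrial ribosomal protein genes higher from 0 to 19. Smad4 was lower in 16 and Apc higher in 17 of 17 alternatives. The 3 members below the filter held too few counts for a test.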
